A study of Mus musculus with 7 samples.

Results

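The cytochrome P450 genes of families 1 to 4 were followed across 7 samples of mouse gut and lung tissue. Members were all genes named Cyp, a family number from 1 to 4, a single subfamily letter and a gene number, with pseudogenes left out. The reference gene table holds 74 such symbols, and 54 of them had a named probe, out of 17047 named genes on the array. These 54 fall into 18 subfamilies, and the choice used names alone, not measured values. The other 20 symbols had no named probe here, among them Cyp2c65, Cyp2w1 and Cyp4x1, and Cyp2c lost the most with 5 of 15.

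Total RNA of each sample was hybridised to its own one-colour array, so each group is 1 array, there is no replicate, and no test, standard deviation or p-value can be given. The 5 tissue samples came from ICR mice and were esophagus, stomach, intestine and lung of adults (no sex or exact age is given) and the stomach primordium of embryonic day 9.5 (E9.5). The other samples were gut-like tissue grown from embryonic stem (ES) cells. One was taken at culture day 42 from medium with EGF (50 ng/mL), FGF10 (100 ng/mL), Wnt3a, Noggin and R-spondin1 (250 ng/mL). The other was taken at day 46, after 4 further days with Shh (100 ng/mL) and Bmp4 (10 ng/mL), so that medium and time differ together. EGF, FGF10 and R-spondin1 are listed for the day 46 sample too, at the same concentrations as for day 42. Such a culture holds many cell types, and in any of these samples fewer cells of a type and less RNA per cell cannot be told apart. The adult organs were hybridised together on 1 slide, but day 42, day 46 and E9.5 stomach each had a separate slide, and for those 3 the slide cannot be told apart from the sample. No spot was saturated, repeated spots of the same probe had a median standard deviation of 0.06 to 0.10 on the log2 scale, and precision is limited by having 1 array a group.

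P450 enzymes are haem proteins of the endoplasmic reticulum that insert an oxygen atom into their substrates with electrons passed on by the reductase Por and by cytochrome b5. Families 1, 2 and 3 oxidise drugs, dietary compounds, steroids and arachidonic acid, and family 4 mainly hydroxylates the end of fatty acid and leukotriene chains. After the liver, the small intestinal lining and the club cells of the airways are textbook sites of these enzymes. Each value below is the log2 processed signal of a gene's probe minus the 75th percentile of its array, called the normalised log2 signal, so that 0 marks that percentile. Values of a gene are compared between arrays, and never between genes, because probes differ in how brightly they report.

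Adult intestine stood out as the array on which most of these genes were highest. It gave the highest signal for 37 of the 54 members (68.5%), against 18.2% of 16120 genes compared in the same way. Lung was highest for 5 (9.26%, against 12.1% of all genes), stomach for 4 (7.41%, against 10.4%) and esophagus for 1 (1.85%, against 9.17%). Day 42 was highest for 3 members (5.56%, against 11.8%) and day 46 for 4 (7.41%, against 12.2%). Only arrays on which a gene was well above background entered this ranking. Of the day 46 genes, Cyp1a2, Cyp2c54 and Cyp2g1 were well above background on that array alone. The stomach signal of Cyp2c54, not well above background, was brighter (-6.45, against -6.85 at day 46). No member was highest in E9.5 stomach, where 26.1% of all genes had their highest signal.

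Detection differed as well, with 51 of 54 members well above background in intestine (94.4%, against 84.4% of all 17047 genes) and 26 in E9.5 stomach (48.1%, against 82.1%). Between them lay esophagus with 39 members (72.2%, against 83.6%), stomach with 41 (75.9%, against 85.2%) and lung with 37 (68.5%, against 77.8%). The day 42 array detected 41 (75.9%, against 78.4%) and the day 46 array 52 (96.3%, against 90.5%). These counts use 1 probe a gene, the brightest, and with any probe of a gene they were 40 in esophagus, 38 in lung and 27 in E9.5 stomach, through Cyp3a44, Cyp2c40 and Cyp2a4. The faintest signal still called above background was -7.13 on the day 46 array and between -6.43 and -5.18 on the other 6, so the day 46 array could report fainter genes. Every member passed on at least 1 array, 23 passed on all 7, and Cyp1a2, Cyp2c38, Cyp2c54 and Cyp2g1 passed on 1 each.

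**Figure D1:**
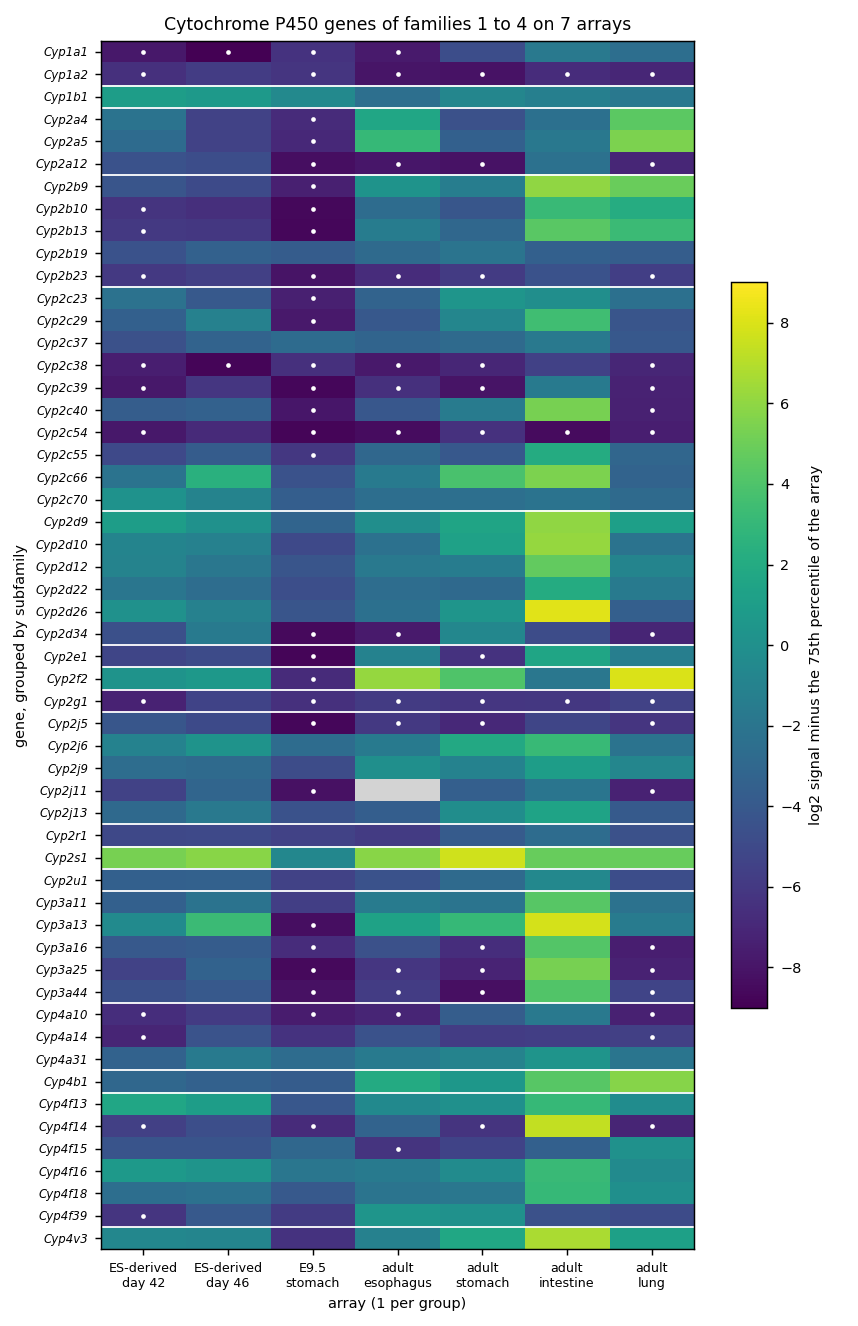
Normalised log2 signal (colour) of the 54 P450 genes, in rows grouped by subfamily, on each of the 7 arrays in columns, 1 array per group. A white dot marks a signal not well above background and the grey cell a spot left out as an outlier; the intestine column holds the highest signal of 37 genes and the E9.5 stomach column 28 dots.

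The samples' labels were checked against marker genes. All 10 enterocyte markers were highest in intestine (Fabp2 10.01, Sis 7.99), and 4 club cell and 6 alveolar markers were highest in lung (Scgb1a1 9.57, Sftpc 9.71). Of 4 parietal cell markers, 3 were highest in adult stomach, among them the acid pump gene Atp4b (9.94). The other, Aqp4, was highest in esophagus (1.15, against 0.90 in stomach). The esophagus array also carried lung markers, with Scgb1a1 at 5.44, Sftpc at 5.12 and Cbr2 at 6.08, and adult stomach held Scgb1a1 at 2.91. Of 11 measured hepatocyte markers, 5 were highest at day 42, 2 at day 46, 3 in intestine and 1 in stomach. Alb read 5.67 at day 42, 6.08 at day 46 and 0.41 in intestine, and Ahsg read 6.72, 6.02 and 0.94 on these arrays. Apoa1 went the other way, with 2.56, 1.38 and 8.28, as did Serpinc1 with -2.83, -2.68 and 0.03, and Ttr was highest in stomach (-0.59, against -2.48 at day 42 and -3.91 at day 46). All 11 were above background on both ES-derived arrays and in stomach, 10 in esophagus and intestine, 7 in lung and 6 in E9.5 stomach, where Alb was not. Their summed log2 signal was 9.15 in intestine, 8.0 at day 42, 7.56 at day 46, 5.46 in stomach and -0.12 in E9.5 stomach. The intestinal sum came mainly from Apoa1 and Apoc3 (7.96), as no other marker of the list read above 0.94 there. The part of the hepatocyte markers in the P450 values was not tested. Of the enterocyte markers, Vil1 was high in the ES-derived tissue (3.31 and 3.79), whereas Lct was not well above background at day 42 or day 46 and Sis only at day 46.

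With organ enrichment set at 8-fold or more above each of the other 3 adult organs, 19 of 51 members tested were intestinal (37.3%, against 2.35% of 15376 genes). They were 5 of 5 Cyp3a genes, 5 of 6 Cyp2d, 4 of 6 Cyp4f, 4 of 10 Cyp2c and Cyp4v3. Lung had 1 such gene, Cyp4f15 (1.96%, against 1.65% of all genes), stomach had 1, Cyp2d34 (1.96%, against 0.813%), and esophagus had none (against 1.23%). Of the 19, 17 were also at least 8-fold above every one of the other 6 arrays, where 1.81% of 16120 genes were. Cyp4f13 and Cyp4f16 were not. The 19 were already chosen by a lead over 3 of these 6 arrays, so 1.81% is not a like share for them. Among all genes, 292 had the lead over the other 6 arrays, beside 362 with the lead over the other 3 organs. A step from 19 to 17 therefore does not set the members apart from other intestine-enriched genes. For Cyp2c40, Cyp2d10 and Cyp4f16 a second probe did not show the 8-fold lead over the other 3 adult organs. On these probes intestine was 1.49-fold lung for Cyp2c40, 0.271 of stomach for Cyp2d10 and 7.84-fold stomach for Cyp4f16. The second probes of Cyp2c40 and Cyp2d10 thus also lacked the 8-fold lead over the other 6 arrays. Without a value for genes below background in any adult organ, the intestinal count was 13. The leads nearest the threshold were 8.32-fold for Cyp4f13 and 8.35-fold for Cyp4f18 inside it and a bound of 2.89 on the log2 scale for Cyp2a12 just outside it.

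**Figure D2:**
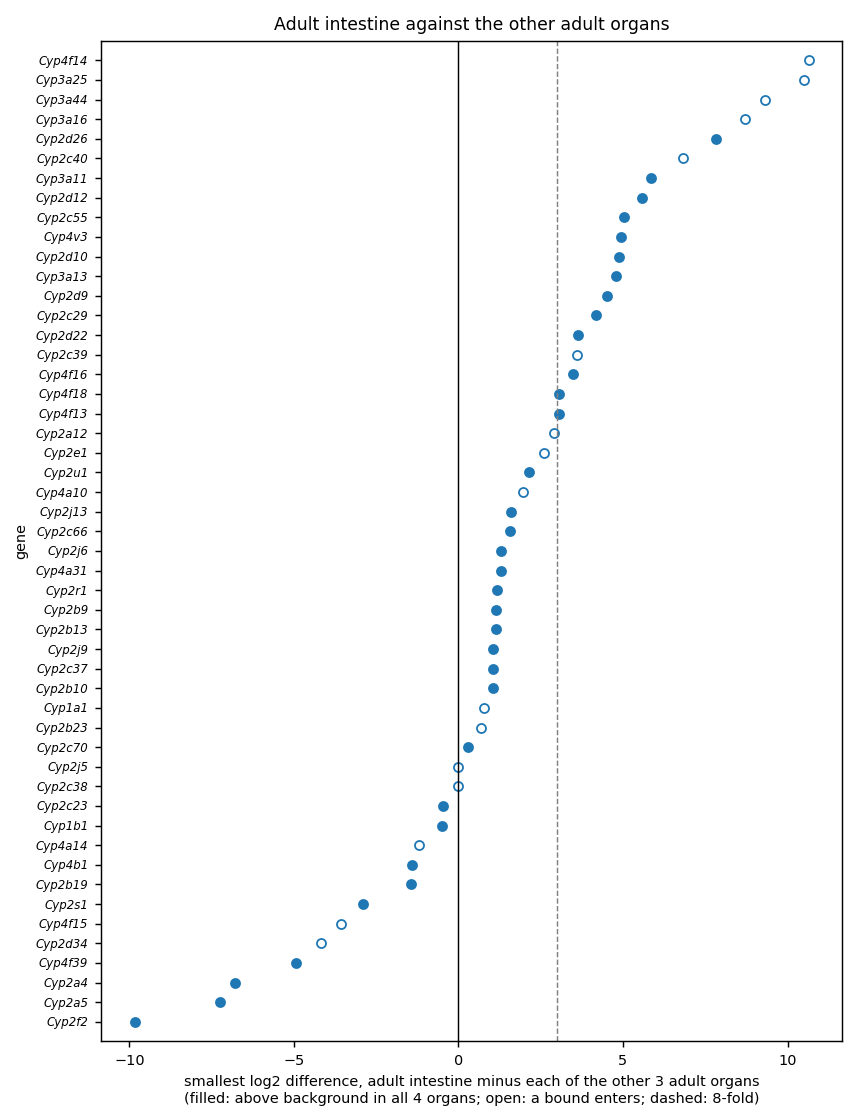
Smallest log2 difference between adult intestine and any of the other 3 adult organs for 50 P450 genes by each gene's brightest probe, 1 array per organ; filled points are above background in all 4 organs, an open point includes a bound, and the dashed line marks 8-fold. The lead was above 0 for 36 genes, ran from -9.84 for Cyp2f2 to 10.64 for Cyp4f14, and was past 8-fold for 19.

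The Cyp3a subfamily, the main group of intestinal and hepatic drug oxidases, was intestinal throughout. Cyp3a11, its best known member in adult mouse liver and gut, read -1.50 in esophagus, -2.08 in stomach, 4.35 in intestine, -2.21 in lung, -5.67 in E9.5 stomach, -3.48 at day 42 and -2.17 at day 46. Its intestinal signal was 57.7-fold above esophagus, the next organ, and the other 6 arrays lay between -5.67 and -1.50.

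Cyp3a13, an extrahepatic form strong in the gut lining, read 1.35 in esophagus, 3.05 in stomach, 7.85 in intestine, -1.54 in lung, -0.42 at day 42 and 3.29 at day 46, and was not well above background in E9.5 stomach. It led stomach, the next organ, by 27.9-fold, and was the Cyp3a gene with the broadest detection outside intestine apart from Cyp3a11. Cyp3a16, a form known from fetal liver, read -4.56 in esophagus, 4.16 in intestine, -3.96 at day 42 and -3.75 at day 46, and was not well above background in stomach, lung or E9.5 stomach. Esophagus was the only other adult organ in which Cyp3a16 was detected, 421-fold lower.

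Cyp3a25 read 5.33 in intestine, -5.43 at day 42 and -3.35 at day 46, and was not well above background in esophagus, stomach, lung or E9.5 stomach. In no other adult organ was Cyp3a25 above background, which puts intestine at least 1460-fold higher. The second probe of Cyp3a25 also peaked in intestine, at 3.09. The brighter probe of Cyp3a44 read 4.14 in intestine, -4.62 at day 42 and -3.99 at day 46, and was not well above background on the other 4 arrays. The second probe of Cyp3a44 was well above background in intestine (0.35) and esophagus (-5.08) alone, a difference of 42.9-fold. Both probes of Cyp3a44 thus peaked in intestine, and neither was above background in stomach, lung or E9.5 stomach. Cyp3a genes are close in sequence and probe sequences were not used here, so signal shared between them cannot be told apart.

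Promoters are shown here because Cyp3a11, Cyp2c40 and Cyp2d26 stand for the intestinal group, Cyp2c70 for the genes highest in ES-derived tissue, and Cyp1a1 for the dioxin-responsive family. RefSeq promoter sequences of build GRCm38.p6 matched 44 of the 54 members by symbol. Each line gives the 250 bases before the first listed transcript start, 5′ to 3′ on the gene's strand, with motif matches on either strand in capitals. The motifs marked are the letters of the TATA box (TATAAA), of a site type bound by the nuclear receptor HNF4 (CAAAGTCCA) and of the core of the dioxin response element (GCGTG).
Cyp3a11 promoter, chr5:145879855-145880104, minus strand: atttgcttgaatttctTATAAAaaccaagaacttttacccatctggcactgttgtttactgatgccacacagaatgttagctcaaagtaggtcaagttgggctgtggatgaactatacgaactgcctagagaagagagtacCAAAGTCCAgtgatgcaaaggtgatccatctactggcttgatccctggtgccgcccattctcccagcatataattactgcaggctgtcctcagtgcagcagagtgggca
Cyp2c40 promoter, chr19:39812815-39813064, minus strand: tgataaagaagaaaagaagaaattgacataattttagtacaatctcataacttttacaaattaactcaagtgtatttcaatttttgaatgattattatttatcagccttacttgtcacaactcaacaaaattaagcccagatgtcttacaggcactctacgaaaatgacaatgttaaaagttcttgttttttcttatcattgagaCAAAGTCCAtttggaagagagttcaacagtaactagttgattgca
Cyp2c70 promoter, chr19:40187287-40187536, minus strand: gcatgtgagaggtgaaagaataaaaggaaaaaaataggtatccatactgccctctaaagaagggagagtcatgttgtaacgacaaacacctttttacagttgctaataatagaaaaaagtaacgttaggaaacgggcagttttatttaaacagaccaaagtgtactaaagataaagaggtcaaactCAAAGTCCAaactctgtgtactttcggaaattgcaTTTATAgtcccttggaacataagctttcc
Cyp2d26 promoter, chr15:82794246-82794495, minus strand: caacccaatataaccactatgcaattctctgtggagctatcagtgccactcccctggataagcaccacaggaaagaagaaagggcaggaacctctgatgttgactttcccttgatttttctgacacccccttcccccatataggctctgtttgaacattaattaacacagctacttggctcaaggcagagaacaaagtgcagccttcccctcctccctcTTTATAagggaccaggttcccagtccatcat
Cyp1a1 promoter, chr9:57697363-57697612, plus strand: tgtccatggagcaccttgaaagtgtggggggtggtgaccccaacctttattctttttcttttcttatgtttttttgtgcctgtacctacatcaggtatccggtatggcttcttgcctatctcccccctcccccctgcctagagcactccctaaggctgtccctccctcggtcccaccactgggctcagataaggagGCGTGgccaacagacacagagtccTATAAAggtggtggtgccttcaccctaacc
The letters CAAAGTCCA, searched on both strands, stood in the window of 4 members (9.09%, against 0.381% of 27025 promoters of the same length), namely Cyp3a11, Cyp3a16, Cyp2c40 and Cyp2c70. Of these, Cyp3a11, Cyp3a16 and Cyp2c40 were intestine-enriched and Cyp2c70 was highest at day 42. In Cyp3a11 the match began 109 bases before the start, in Cyp2c40 45 bases and in Cyp2c70 64 bases. TATAAA, at any position of the window, was found in 18 members (40.9%, against 13.0%), 8 of them among the 17 intestine-enriched members with a promoter. It began 29 bases before the start in Cyp2c70, 31 in Cyp2d26 and 30 in Cyp1a1. In Cyp3a11 it began 234 bases before the start, far from the position in the other 3 promoters. GCGTG was found in 9 members (20.5%, against 28.2%), the gut and blood factor element AGATAA in 10 (22.7%, against 10.3%) and the intestinal CDX element TTTATG in 6 (13.6%, against 11.1%). These are matches of letters in a short window and show no binding, and neighbouring genes of a subfamily share much of their sequence.

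The Cyp2d subfamily, whose human member handles many prescribed drugs, was intestinal except for Cyp2d34. Cyp2d26 read -2.33 in esophagus, 0.36 in stomach, 8.18 in intestine, -3.56 in lung, -4.27 in E9.5 stomach, 0.09 at day 42 and -1.10 at day 46. Its intestinal signal was 226-fold above stomach, the next organ, the largest lead of a gene detected in all 4 adult organs. Cyp2d22, often treated as the mouse counterpart of the human drug-metabolising gene, read -2.57 in esophagus, -2.87 in stomach, 2.06 in intestine, -1.59 in lung, -4.65 in E9.5 stomach, -1.96 at day 42 and -2.57 at day 46. Its lead in intestine was 12.5-fold over lung.

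Cyp2d9, a steroid hydroxylase, read -0.11 in esophagus, 1.51 in stomach, 6.03 in intestine, 1.15 in lung, -3.20 in E9.5 stomach, 0.99 at day 42 and 0.14 at day 46. Its second probe had the same peak, at 5.57 in intestine. Cyp2d12 read -1.73 in esophagus, -1.43 in stomach, 4.69 in intestine, -0.90 in lung, -4.28 in E9.5 stomach, -0.98 at day 42 and -1.88 at day 46. Intestine was 48.0-fold above lung, the next organ, for Cyp2d12.

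Cyp2d10 read -2.28 in esophagus, 1.32 in stomach, 6.18 in intestine, -2.13 in lung, -5.01 in E9.5 stomach, -0.86 at day 42 and -1.10 at day 46. Its second probe did not share this pattern, at -3.76 in intestine with its highest value, -1.88, in stomach, so the 29.2-fold lead rests on 1 of 2 probes. Cyp2d34 had its own order and read -0.66 in stomach, -4.83 in intestine, -4.62 at day 42 and -1.61 at day 46, and was not well above background in esophagus, lung or E9.5 stomach. Stomach was 18.0-fold above intestine for Cyp2d34, and the day 46 array came closest to stomach.

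The Cyp2c genes, many of which form epoxides and hydroxy acids from arachidonic acid, were mixed. Cyp2c40 read -4.08 in esophagus, -1.54 in stomach, 5.28 in intestine, -3.71 at day 42 and -3.38 at day 46, and was not well above background in lung or E9.5 stomach. These are the values of its brighter probe, on which intestine was 112-fold above stomach. Its second probe read 2.13 in intestine and 1.56 in lung, 1.49-fold apart, so detection in lung and the lead of intestine over lung depend on the probe. Cyp2c29 read -4.02 in esophagus, -0.71 in stomach, 3.48 in intestine, -4.25 in lung, -3.51 at day 42 and -1.12 at day 46, and was not well above background in E9.5 stomach. Its intestinal signal was 18.2-fold above that in adult stomach.

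Cyp2c55, an arachidonic acid hydroxylase of the colon, read -2.98 in esophagus, -4.08 in stomach, 2.06 in intestine, -3.04 in lung, -5.04 at day 42 and -3.76 at day 46, and was not well above background in E9.5 stomach. Its level in intestine was 33.0-fold above esophagus, the next organ. Cyp2c39 read -1.58 in intestine and -6.13 at day 46, and was not well above background in esophagus, stomach, lung, E9.5 stomach or at day 42. For Cyp2c39 intestine was at least 12.1-fold above the other adult organs. Cyp2c66 had a high signal in both stomach and intestine and read -1.56 in esophagus, 3.87 in stomach, 5.43 in intestine, -3.30 in lung, -4.50 in E9.5 stomach, -2.13 at day 42 and 2.42 at day 46.

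Cyp2c23, an arachidonic acid epoxygenase, read -3.27 in esophagus, 0.39 in stomach, -0.09 in intestine, -2.33 in lung, -2.22 at day 42 and -4.0 at day 46, and was not well above background in E9.5 stomach. Adult stomach and intestine differed by 0.48 for Cyp2c23, close to the spread of 0.53 between probes of a gene for that pair of arrays. Cyp2c70, the liver enzyme that makes muricholic bile acids, read -2.53 in esophagus, -2.44 in stomach, -2.14 in intestine, -2.77 in lung, -3.61 in E9.5 stomach, 0.17 at day 42 and -0.93 at day 46. It was highest at day 42, and the 4 adult organs lay within -2.77 to -2.14. Cyp2c37 read between -4.55 and -1.75 over the 7 arrays, Cyp2c38 was detected in intestine alone, by 1 of 2 probes, and Cyp2c54 at day 46 alone.

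The Cyp4f genes, which hydroxylate leukotrienes and long-chain fatty acids, held 4 intestinal members. Cyp4f14, a leukotriene hydroxylase, read -3.28 in esophagus, 7.36 in intestine and -4.70 at day 46, and was not well above background in stomach, lung, E9.5 stomach or at day 42. Its 1600-fold lead over esophagus was the largest among leads measured on both arrays. Cyp4f16 read -1.62 in esophagus, -0.29 in stomach, 3.19 in intestine, -0.40 in lung, -1.92 in E9.5 stomach, 0.72 at day 42 and 0.35 at day 46, with a second probe also highest in intestine (-0.08). On that second probe intestine was 7.84-fold above stomach, short of 8-fold. Cyp4f18, a leukotriene hydroxylase of white blood cells, read -2.06 in esophagus, -1.86 in stomach, 3.05 in intestine, -0.01 in lung, -3.97 in E9.5 stomach, -2.48 at day 42 and -2.29 at day 46.

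Cyp4f13 read -0.48 in esophagus, 0.02 in stomach, 3.08 in intestine, -0.25 in lung, -4.09 in E9.5 stomach, 1.68 at day 42 and 1.01 at day 46, and its day 42 signal was the second highest. Cyp4f15 read -5.37 in stomach, -3.46 in intestine, 0.10 in lung, -2.97 in E9.5 stomach, -4.31 at day 42 and -4.35 at day 46, and was not well above background in esophagus. It was the only member at least 8-fold above every other array outside intestine, 8.39-fold above E9.5 stomach, where 0.9% of 16120 genes had such a lead in lung. Cyp4f39, which serves the fatty acid chains of the epidermal barrier, read 0.38 in esophagus, 0.08 in stomach, -4.57 in intestine, -4.87 in lung, -5.89 in E9.5 stomach and -3.97 at day 46, and was not well above background at day 42. Of 7 squamous epithelium markers, 4 were highest in esophagus, 2 in stomach and 1, Ivl, at day 46 (1.13). The keratin gene Krt5 read 7.94 in esophagus and 6.31 in stomach. Ivl read -1.97 in stomach and was not well above background in esophagus. The part of these markers' cells in the Cyp4f39 signal was not tested.

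Of the other family 4 genes, Cyp4v3, a fatty acid hydroxylase whose human counterpart is mutated in a crystalline eye dystrophy, read -1.11 in esophagus, 1.75 in stomach, 6.70 in intestine, 1.20 in lung, -6.33 in E9.5 stomach, -0.68 at day 42 and -0.79 at day 46. Intestine was 30.9-fold above stomach for Cyp4v3. Cyp4a10, a fatty acid hydroxylase induced through the receptor PPAR alpha, read -3.69 in stomach, -1.74 in intestine and -5.89 at day 46, and was not well above background in esophagus, lung, E9.5 stomach or at day 42. Of its other two probes, one was above background in intestine alone (-5.21) and one at day 46 alone (-6.13). Cyp4a14, induced in the same way, read -4.46 in esophagus, -5.81 in stomach, -5.66 in intestine, -6.35 in E9.5 stomach and -4.39 at day 46, and was not well above background in lung or at day 42. Day 46 and esophagus were 0.06 apart for Cyp4a14. Cyp4a31 read -1.58 in esophagus, -0.96 in stomach, 0.33 in intestine, -2.01 in lung, -2.61 in E9.5 stomach, -3.34 at day 42 and -1.68 at day 46.

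Lung was the highest array of 5 members, below the share of all genes as given above, and in 3 of them esophagus came next. Cyp2f2, the club cell enzyme that activates naphthalene, read 6.17 in esophagus, 4.04 in stomach, -1.88 in intestine, 7.96 in lung, 0.22 at day 42 and 0.57 at day 46, and was not well above background in E9.5 stomach. It was the member with the lowest intestinal standing, with a difference to lung of -9.84. Cyp2a5, a coumarin hydroxylase of liver, lung and nose, read 3.05 in esophagus, -3.47 in stomach, -1.82 in intestine, 5.42 in lung, -2.69 at day 42 and -5.45 at day 46, and was not well above background in E9.5 stomach. Its close relative Cyp2a4, a testosterone hydroxylase, read 1.65 in esophagus, -4.51 in stomach, -2.34 in intestine, 4.46 in lung, -2.17 at day 42 and -5.42 at day 46 by its brighter probe. In E9.5 stomach that probe was not well above background, whereas the second probe of Cyp2a4 was (-5.43).

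For all 3 genes lung was highest and esophagus second, by 1.79 for Cyp2f2, 2.38 for Cyp2a5 and 2.80 for Cyp2a4. Cyp4b1, a lung enzyme that activates protoxins, read 2.04 in esophagus, 0.51 in stomach, 4.32 in intestine, 5.73 in lung, -3.74 in E9.5 stomach, -2.98 at day 42 and -3.42 at day 46, with intestine rather than esophagus in second place. All 4 club cell and 6 alveolar markers were well above background on the esophagus array, and their summed signals, in log2, were 6.85 and 5.30 there, 10.49 and 10.07 in lung and 4.99 and 2.23 in stomach. Their part in the esophageal signal of Cyp2f2, Cyp2a5, Cyp2a4 and Cyp4b1 was not tested.

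The phenobarbital-responsive Cyp2b group was shared between intestine and lung. Cyp2b10, the standard marker of the receptor CAR, read -2.65 in esophagus, -4.19 in stomach, 3.19 in intestine, 2.13 in lung and -6.55 at day 46, and was not well above background in E9.5 stomach or at day 42. Cyp2b9 read 0.27 in esophagus, -1.39 in stomach, 6.01 in intestine, 4.87 in lung, -4.27 at day 42 and -4.98 at day 46, and was not well above background in E9.5 stomach. Cyp2b13 read -1.44 in esophagus, -3.02 in stomach, 4.41 in intestine, 3.27 in lung and -6.11 at day 46, and was not well above background in E9.5 stomach or at day 42. In each of these 3 genes intestine led lung by 1.06 to 1.14 on the log2 scale, and both ES-derived arrays read -4.27 or less.

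The second probe of Cyp2b9 kept that order (0.98 in intestine and -0.02 in lung), whereas the second probe of Cyp2b13 was low in intestine (-4.95) and not well above background in lung. Probe sequences were not used here, so signal shared between Cyp2b9, Cyp2b10 and Cyp2b13 cannot be told apart. Cyp2b19, a keratinocyte epoxygenase, read -2.76 in esophagus, -2.06 in stomach, -3.51 in intestine, -3.69 in lung, -3.77 in E9.5 stomach, -4.47 at day 42 and -3.43 at day 46. Cyp2b23 was faint, detected in intestine (-4.48) and at day 46 (-5.62).

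**Figure D3:**
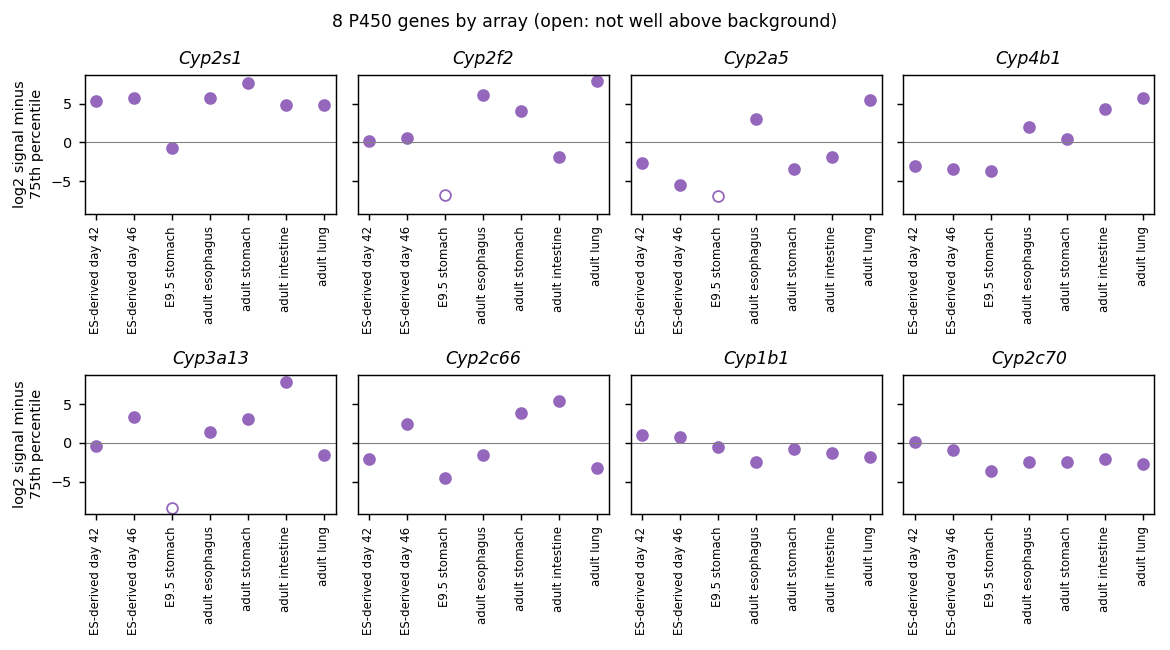
Normalised log2 signal of 8 P450 genes (vertical axis) on the 7 arrays (horizontal axis), 1 point per array; open points are not well above background. Cyp2f2, Cyp2a5 and Cyp4b1 peak in lung, Cyp3a13 and Cyp2c66 in intestine, Cyp2s1 in stomach, and Cyp1b1 and Cyp2c70 at day 42.

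Family 1, the targets of the aryl hydrocarbon receptor Ahr, had both of its Cyp1a genes below background on most arrays. Cyp1a1, which oxidises polycyclic aromatic hydrocarbons, read -4.77 in stomach, -1.70 in intestine and -2.49 in lung, and was not well above background in esophagus, E9.5 stomach or either ES-derived sample. Intestine and lung differed by 0.79 for Cyp1a1, against a spread of 0.60 between probes of a gene for that pair of arrays. Cyp1a2, a liver enzyme, was detected at day 46 alone (-5.83), and its second probe on no array. Cyp1b1, an oestrogen and hydrocarbon oxidase found outside the liver, read -2.45 in esophagus, -0.75 in stomach, -1.25 in intestine, -1.79 in lung, -0.54 in E9.5 stomach, 1.00 at day 42 and 0.74 at day 46, with both ES-derived arrays highest.

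Cyp2s1, a P450 of epithelia in contact with the outside, read 5.78 in esophagus, 7.70 in stomach, 4.81 in intestine, 4.79 in lung, -0.67 in E9.5 stomach, 5.33 at day 42 and 5.80 at day 46. It was well above background on all 7 arrays and was lowest in E9.5 stomach. Cyp2e1, which oxidises ethanol, read -1.0 in esophagus, 1.61 in intestine, -1.31 in lung, -5.24 at day 42 and -4.85 at day 46, and was not well above background in stomach or E9.5 stomach. Cyp2g1, an olfactory form, was detected at day 46 alone (-5.41), and not by its second probe.

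The Cyp2j epoxygenases were mostly intestinal but with small leads. Cyp2j6 read -1.63 in esophagus, 1.83 in stomach, 3.14 in intestine, -2.14 in lung, -2.62 in E9.5 stomach, -1.0 at day 42 and 0.21 at day 46, with intestine 1.30 above stomach. Cyp2j5, best known from kidney and liver, read -5.27 in intestine, -4.18 at day 42 and -4.98 at day 46, and was not well above background in esophagus, stomach, lung or E9.5 stomach. Both probes of Cyp2j5 were highest at day 42. Cyp2j9 was also highest in intestine, as was Cyp2j11, which lacked a value in esophagus. The brightest probe of Cyp2j13 was highest in intestine (1.46), but its other two probes were not well above background there, and one was detected at day 46 alone (-4.46) and one in lung alone (-4.08).

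Among genes with an internal substrate, Cyp2r1, the vitamin D hydroxylase, read -5.87 in esophagus, -3.81 in stomach, -2.63 in intestine, -4.54 in lung, -5.42 in E9.5 stomach, -5.11 at day 42 and -5.02 at day 46. Cyp2u1, a fatty acid hydroxylase, read -4.46 in esophagus, -2.78 in stomach, -0.63 in intestine, -4.74 in lung, -5.48 in E9.5 stomach, -3.50 at day 42 and -3.41 at day 46. They ranged over 3.24 and 4.85 on the log2 scale, and both were highest in intestine. Cyp2a12, a steroid hydroxylase of liver, read -2.28 in intestine, -4.43 at day 42 and -4.73 at day 46, and was not well above background in esophagus, stomach, lung or E9.5 stomach.

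Neighbours in the genome did not always share their highest array. In RefSeq order, the run from Cyp2s1 to Cyp2f2 holds Cyp2b10, Cyp2b13, Cyp2b9, Cyp2a4, Cyp2b23, Cyp2b19, Cyp2g1, Cyp2a5 and Cyp2a12 between them, and their highest arrays were stomach, intestine, lung and day 46. In the Cyp2d run 5 of 6 measured genes were highest in intestine, and in the run of Cyp3a16, Cyp3a44, Cyp3a11 and Cyp3a25 all were, as was Cyp3a13 outside it.

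Between the ES-derived samples, day 46 against day 42, a small set of members differed at least 4-fold. Of 52 members tested, 6 were higher at day 46 (11.5%, against 1.04% of 15453 genes) and 2 were lower (3.85%, against 0.764%). The median difference of the members was 0.04, against 0.0 for all genes, and the spread between probes of a gene was 0.51. Cyp2c66 was 23.4-fold higher at day 46, with -2.13 at day 42 and 2.42 at day 46, beside 3.87 in stomach. Cyp3a13 was 13.1-fold higher, with -0.42 and 3.29, beside 3.05 in stomach and 7.85 in intestine.

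Cyp2d34, the stomach gene, was 8.03-fold higher, with -4.62 and -1.61. The other 3 were Cyp2c29 (5.24-fold), Cyp2j11 (5.07-fold) and Cyp3a25 (4.25-fold). All 6 were above background on both arrays by their brightest probe. At day 42 Cyp2j11 (-5.46) and Cyp3a25 (-5.43) were close to the faintest signal called above background there (-5.57). Their second probes were not above background at day 42 and read -5.64 and -6.23 at day 46, so they gave no measured rise. Lower at day 46 were Cyp2a4 by 9.54-fold and Cyp2a5 by 6.80-fold, each well above background on both arrays.

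Both probes of Cyp2a5 were lower at day 46 (the second read -2.51 and -5.63), whereas the second probe of Cyp2a4 read -3.62 and -3.80. The pair is nearly identical in sequence and may share signal. Centring arrays on their medians, which lowers day 46 relative to day 42, gave 3 higher and 3 lower in place of 6 and 2. Of all genes 0.537% were then higher and 1.55% lower. Normexp background correction gave 2 and 1, against 0.356% and 0.434% of all genes. Cyp2c66 and Cyp3a13 were past 4-fold under each of these, at 4.15 and 3.31 after median centring and 4.29 and 3.74 after normexp.

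Over the same step the surface mucous marker Gkn2 read 0.84 and 7.23 and Tff1 4.36 and 6.19, beside 9.68 and 10.44 in adult stomach. Of the 4 markers of that list, Gkn1 alone was not well above background at day 42, and the summed log2 signal was 4.48 at day 42 and 7.81 at day 46. Their part in the P450 differences was not tested. None of the 20 P450 regulators and none of 9 redox genes differed 4-fold between day 46 and day 42. Of all genes 1.04% were higher and 0.764% lower, so lists this short would hold few such genes or none.

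**Figure D4:**
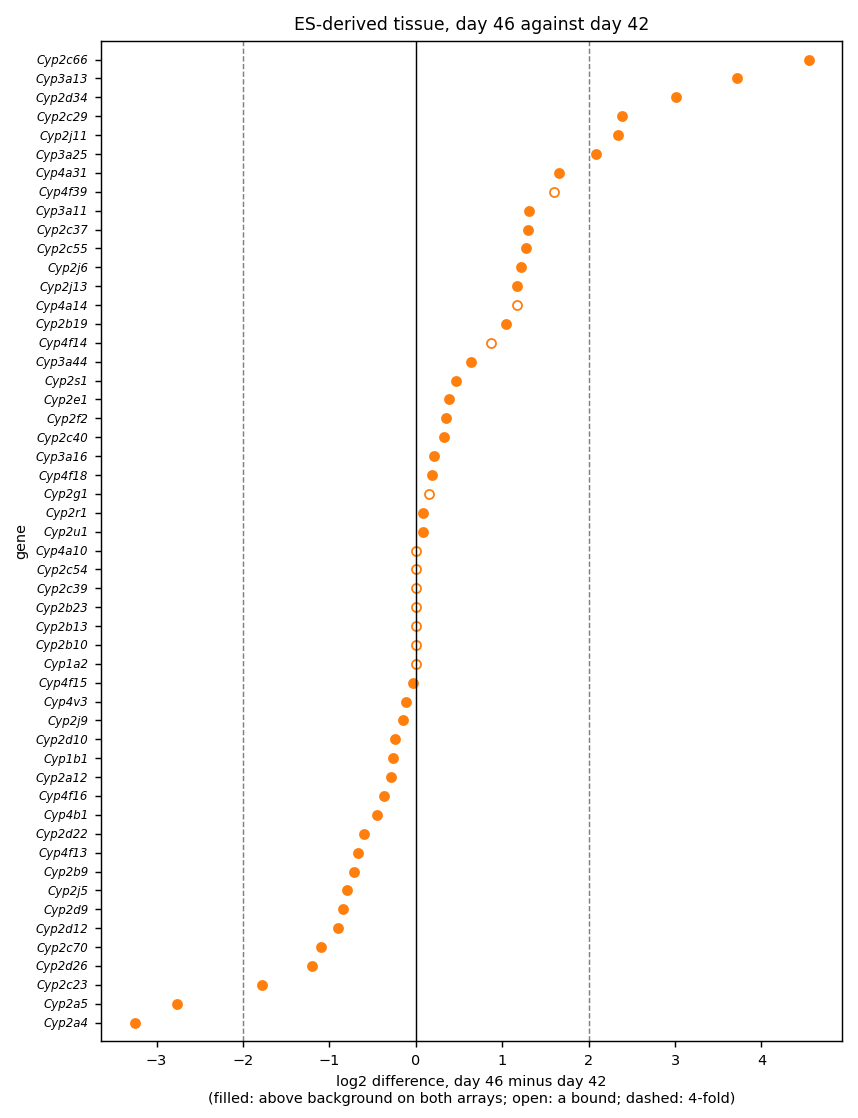
Log2 difference of P450 genes between the ES-derived samples, day 46 minus day 42, 1 array each; filled points are above background on both arrays, open points are bounds and dashed lines mark 4-fold. Of 52 genes, 6 lie above 4-fold, led by Cyp2c66 at 4.55, and Cyp2a4 and Cyp2a5 lie below.

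The 19 intestine-enriched members were read on the 3 arrays that did not enter their choice. At day 42 17 of them were well above background and at day 46 all 19, whereas in E9.5 stomach 10 were; for all 362 intestine-enriched genes these shares were 76.2%, 91.4% and 64.6%. At day 42 all 17 that could be compared were at least 2-fold above E9.5 stomach, against 59.3% of the 362-gene list's tested genes, with medians of 2.72 and 1.71. At day 46 18 of 19 were, against 58.7%, with medians of 3.05 and 1.51. Against intestine, whose values chose these genes, the members' median difference was -7.10 at day 42 and -6.53 at day 46, and that of the 362 genes was -5.93 and -5.68, with signals below background taken as measured. The gap varied between genes, with 7.36 in intestine against -4.70 at day 46 for Cyp4f14, and 3.08 in intestine against 1.68 at day 42 and 1.01 at day 46 for Cyp4f13.

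Set against adult stomach, the ES-derived tissue had less of many P450 genes at day 42 and of fewer at day 46. At day 42, 18 of 47 members tested were at least 4-fold lower than in stomach (38.3%, against 10.3% of 14819 genes) and 4 were higher (8.51%, against 7.39%). The median of the members was -1.38, against 0.0 for all genes, and the spread between probes was 0.87. Cyp2c66 was 63.8-fold lower, Cyp2d34 15.5-fold, Cyp2f2 14.2-fold, Cyp4b1 11.2-fold and Cyp3a13 11.1-fold. Cyp4f39, not well above background at day 42, was at least 50.1-fold lower.

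Higher at day 42 than in stomach were Cyp2c70 by 6.07-fold and Cyp2a4 by 5.07-fold, and by bounds Cyp3a16 (at least 5.13-fold) and Cyp2j5 (at least 4.39-fold). Cyp2s1 was 5.16-fold lower at day 42, with 5.33 against 7.70. The split of 4 higher to 18 lower became 8 to 12 after median centring and 6 to 15 after quantile normalisation, and the 4 higher genes were no longer past 4-fold after normexp.

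At day 46, 11 of 53 members were at least 4-fold lower than in stomach (20.8%, against 9.91% of 15727 genes) and 3 were higher (5.66%, against 6.86%). The median of the members was -0.45, against 0.0 for all genes, and the spread between probes was 0.85. The lowest relative to stomach were Cyp2c23 (21.0-fold), Cyp4f39 (16.6-fold), Cyp4b1 (15.3-fold), Cyp2b9 (12.0-fold), Cyp2f2 (11.1-fold) and Cyp2b13 (8.52-fold). The 3 higher genes were Cyp3a25 (at least 7.82-fold), Cyp3a16 (at least 5.92-fold) and Cyp3a44 (at least 5.01-fold), none of them above background in stomach, and after normexp correction none was past 4-fold. The second probe of Cyp3a25 read -6.23 at day 46, close to the faintest signal called above background in stomach (-6.32). That of Cyp3a44 was above background on neither array.

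Cyp2c66, Cyp2d34, Cyp3a13 and Cyp2c29, at least 4-fold below stomach at day 42, were within 4-fold of it at day 46. The same held for Cyp2b19, Cyp2c40, Cyp2j6, Cyp2j13, Cyp2s1 and Cyp4a31. The step was small for Cyp2c40 (4.51-fold to 3.6-fold) and Cyp2s1 (5.16-fold to 3.74-fold). Cyp2f2, Cyp4b1, Cyp4f39, Cyp2c23, Cyp2b9, Cyp2b13, Cyp2d10 and Cyp4v3 were at least 4-fold below it on both days. Cyp1a1, Cyp2b10 and Cyp4a10 were so at day 46 alone. At day 42 these genes were not above background and their differences are bounds, set by a higher faintest signal (-5.57, against -7.13 at day 46). These comparisons share the stomach array, and the day 46 step itself is given above.

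E9.5 stomach against adult stomach gave the largest share of lower members. Of 41 members tested, 28 were at least 4-fold lower in E9.5 stomach (68.3%, against 18.1% of 15090 genes), and 1 was higher (2.44%, against 11.5%). The median of the members was -3.42, against -0.03 for all genes, and the spread between probes was 0.63. For 16 of the 28 both arrays were above background, and the other 12 differences are bounds. Measured on both, Cyp2s1 was 330-fold lower (-0.67 against 7.70), Cyp2c66 329-fold (-4.50 against 3.87) and Cyp4v3 271-fold (-6.33 against 1.75).

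Bounds were largest for Cyp2f2 (at least 1420-fold lower), Cyp3a13 (at least 717-fold) and Cyp2c23 (at least 114-fold). The higher gene was Cyp4f15, 5.30-fold above adult stomach, and it was not past 4-fold after normexp correction. With that correction the median was -1.92 and 20 members were lower.

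**Figure D5:**
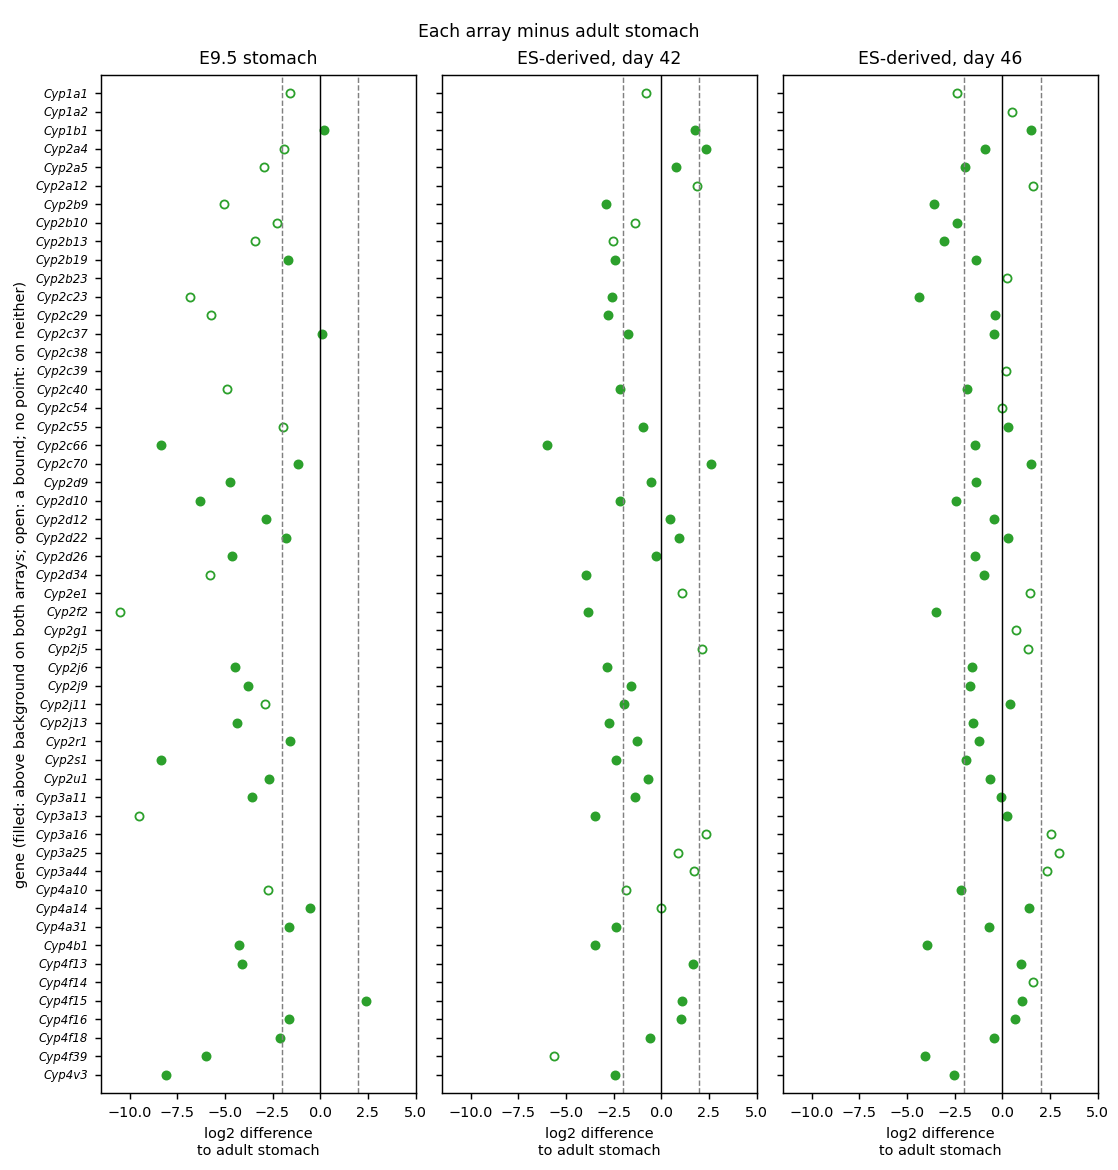
Log2 difference of P450 genes to adult stomach for E9.5 stomach, ES-derived day 42 and ES-derived day 46, 1 array each; filled points are above background on both arrays, open points are bounds, a missing point was above background on neither, and dashed lines mark 4-fold. Genes at least 4-fold lower number 28, 18 and 11.

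The partner genes of the P450 system were detected throughout. All 9 measured redox and haem genes were above background on all 7 arrays, and 5 were highest in intestine, where 18.2% of all genes were. Por, the reductase that serves every microsomal P450, read 5.96 at day 42, 5.71 at day 46, 3.50 in E9.5 stomach, 4.43 in esophagus, 4.94 in stomach, 6.25 in intestine and 5.27 in lung. No redox or haem gene was 4-fold apart between either ES-derived array and adult stomach. Of all genes 10.3% were lower and 7.39% higher at day 42, and 9.91% and 6.86% at day 46. In E9.5 stomach 1 of 9, the haem oxygenase Hmox1, was 4-fold lower, against 18.1% of all genes.

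Of 20 regulators, 9 were highest in intestine, against 18.2% of all genes. Hnf4a, a nuclear receptor of gut and liver epithelium, read -1.29 at day 42, -0.69 at day 46, 0.55 in stomach and 3.56 in intestine, and was not well above background in E9.5 stomach, esophagus or lung. Nr1i2, the drug sensor PXR, was detected on the same 4 arrays, at -2.51, -1.94, -0.25 and 2.29. Ahr read 2.44, 1.60, 0.70 and -0.07 on these arrays and 2.48 in lung.

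Against adult stomach 13 of 20 regulators were at least 4-fold lower in E9.5 stomach and none higher, where 18.1% of all genes were lower and 11.5% higher. Ppara was among the 13, with a log2 difference of -5.68. At day 42 3 were lower (Ppara, Nr1i2 and Nr0b2) and 1 higher (Tiparp), beside 10.3% and 7.39% of all genes. At day 46 2 were lower (Ppara and Nr0b2) and 2 higher (Tiparp and Cebpb), beside 9.91% and 6.86% of all genes.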

How the data were processed

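RNA of 7 samples was measured on Agilent 4x44K one-colour arrays, 1 per group. Per the file headers, the deposited scanner files give each spot's background-corrected intensity, extracted with Agilent Feature Extraction (10.7.3.1 for day 42 and day 46, 10.5.1.1 for the tissues), while the submitters' processing notes name 10.5. The authors also deposited log2 values scaled to each array's 75th percentile. Their medians were -3.33 (day 42), -2.92 (day 46), -3.43 (E9.5 stomach), -2.75 (esophagus), -2.86 (stomach), -2.98 (intestine) and -2.68 (lung), and their correlation with the values computed here was at least 0.999 on each array.

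Control spots and outliers (40 to 728 per array) were left out, log2 intensities of a probe's spots were averaged, and the 75th percentile of the array was taken off. The scanner's flag on a share of 0.5 or more of a probe's spots defined signal above background. Probes were named by RefSeq accession, or by symbol for 57 probes, and 16742 of 41174 stayed unnamed. The probe with the highest mean stood for a gene. A gene below background on 1 array took the higher of its own signal and that array's lowest signal above background, which gives a lower bound (a bound of the wrong sign was set to 0), and a gene below background on both was not tested. The spread between probes is the standard deviation of a log2 difference over probes of 1 gene. Summed marker signals are log2 of sums of linear signals.

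With 1 array per group there was no test, so counts use 4-fold between arrays and 8-fold between organs, set beside all genes. Named were all members past these folds on 1 array, the 6 largest differences on each side of a comparison, and a textbook set. The members, lists, comparisons and rules were chosen with earlier results of these data known. The alternatives were median centring, quantile normalisation, the authors' table, normexp correction (limma 3.58.1, offset 50), no background filter, genes restricted to those detected on each array in a comparison, averaging a gene's probes, and a 4-fold organ threshold. The scripts were also tested on simulated data. The files held 0 columns of another series.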

Additional observations from a re-analysis of the deposited data

How the results depend on the processing

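Of 116 values of counts and medians recomputed under an alternative, 95 stayed within 1.5 times the count or within the spread and 21 moved. The median for day 46 against day 42 changed sign within the spread, from 0.0418 to -0.0073 under median centring. Of 629 values of single genes past a threshold 537 stayed and 92 moved, 50 of them under normexp, and none changed sign. The authors' table moved none. Median centring, which shifts a comparison by the difference between array medians of -3.43 to -2.68, gave 3 higher genes for day 46 against day 42 and 8 for day 42 against stomach. Normexp gave 2 higher and 1 lower for day 46 against day 42, 0 higher against stomach for day 42, day 46 and E9.5, an E9.5 median of -1.92, and 0 lung and 0 stomach genes. Without a background filter, 5 genes were higher at day 46 than in stomach and the E9.5 median was -2.55. With genes above background on every array compared, 2 genes were higher at day 42 and 0 at day 46 than in stomach, 16 were lower in E9.5 stomach, and lung and stomach had 0. The mean over probes gave 1 lower gene for day 46 against day 42, as Cyp2a4 read -1.71, and 1 higher for day 46 against stomach. Quantile normalisation gave 2 lung genes and a 4-fold threshold 3. The cause of these changes was not tested.

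The intestinal count of 19 was 20 with median centring, 18 with quantile normalisation, 16 with normexp, 20 with no filter, 13 with genes detected in all adult organs and 18 with the mean over probes. Quantile normalisation lost Cyp4f13 and Cyp4f18, normexp these and Cyp2c39, and the mean over probes Cyp2d10. Faint genes are limited by background, which normexp treats differently. Slide could not be fitted with 1 array per group. No paired analysis was possible because each group has 1 sample.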

Other observations

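Drug-handling enzymes outside the P450 families were lower in E9.5 stomach than in adult stomach for 18 of 22 genes tested and higher for none, at 4-fold or more, where 18.1% of all genes were lower and 11.5% higher. The glutathione transferase Gsta1 read 7.49 in adult stomach, 2.91 at day 42 and 6.05 at day 46, and was not well above background in E9.5 stomach. Day 42 held 8 of 21 such genes below stomach by 4-fold or more and 1 above it (10.3% and 7.39% of all genes), and day 46 held 4 of 22 below and none above (9.91% and 6.86%). Between the ES-derived samples Gsta1 and the sulfotransferase Sult1b1 were at least 4-fold higher at day 46, by 3.13 and 2.41 on the log2 scale. Of 23 measured genes, 9 were highest in intestine, among them the epoxide hydrolase Ephx2 (7.85), and 7 in lung, among them the flavin monooxygenase Fmo2 (5.47). The shares of all genes highest there were 18.2% for intestine and 12.1% for lung. The quinone reductase Nqo1 was highest in stomach (4.26), and read 0.07 at day 42 and -1.97 at day 46. The aldehyde dehydrogenase Aldh3a1 was detected in esophagus (1.82), stomach (0.70) and lung (-3.86).

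P450 genes of families 5 and above did not centre on 1 array, with 6 of 18 highest in intestine and 6 at day 46 (18.2% and 12.2% of all genes). The steroid enzyme gene Cyp17a1 read between 5.22 and 5.80 in the 4 adult organs, 2.23 in E9.5 stomach, -1.18 at day 42 and -0.69 at day 46. Cyp26a1, which breaks down retinoic acid, was highest in E9.5 stomach (-1.73), and the oxysterol hydroxylase Cyp7b1 at day 46 (2.24) and day 42 (1.98). Cyp2ab1, Cyp3a41a and Cyp4a12a have probes on the array but symbols of another form, and were not counted.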
